A study of Mus musculus with 2 samples.

Results

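Conventional type 2 dendritic cells (cDC2) are migratory antigen-presenting cells of the myeloid lineage, and 70 of the 35848 cells kept from the mouse aorta passed a gate for them. The cells were chosen by raw counts of unique molecular identifiers (UMIs), each a captured RNA molecule. A cell was called cDC2 with at least 5 UMIs of *H2-Ab1*, the beta chain of the class II molecule I-A, and at least 2 of *Cd209a*, a mouse homologue of the lectin DC-SIGN. It also had to hold at most 1 UMI of *Xcr1* and *Clec9a* together, at most 1 of *Ccr7*, at most 2 of *C1qa*, *C1qb* and *C1qc* together, 0 of *Cd79a* and *Cd3e*, and under 10 of *S100a8* and *S100a9*. These limits were set on genes of type 1 dendritic cells (cDC1), mature migratory dendritic cells, C1q macrophages, lymphocytes and neutrophils. In GRCm39, *Cd209a* (ENSMUSG00000031494) lies on the minus strand at chr8:3793397-3798984 and *H2-Ab1* (ENSMUSG00000073421) on the plus strand at chr17:34476663-34488393. The levels of the gate's 12 genes chose the cells, so they are given as a description and support nothing.

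The cells came from the suprarenal abdominal aorta of male C57BL/6J mice aged 5 months, with 1 droplet library (10x Genomics 3′) per condition. The AngII+HS group received angiotensin II, the vasoconstrictor peptide hormone, at 1500 ng/kg/min from a subcutaneous osmotic pump for 28 days, with 0.9% NaCl and 0.2% KCl in the drinking water as a model of abdominal aortic aneurysm. The Control group received normal saline over the same 28 days. The design text gives 5 pooled animals per condition, whereas the extraction protocol names 1 mouse for Control and 2 for AngII+HS. In either case a condition was 1 library, so no test between conditions was possible, and every interval printed here covers counting error only.

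cDC2 develop from bone marrow precursors under the growth factor FLT3L and its receptor FLT3, share the transcription factor ZBTB46 with cDC1, and depend on IRF4 for much of their program. They take up antigen in tissue, load it onto class II molecules and present it to CD4+ T cells, whereas cDC1 cross-present antigen to CD8+ T cells. In the arterial wall they lie mainly in the adventitia, where resident macrophages, which rely on the CSF1 receptor, also sit. C1q macrophages, named for the complement proteins they make, express class II molecules too, and were therefore the group with which cDC2 were compared first.

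The library taken as Control held 11448 barcodes and 86618995 UMIs, of which 11288 cells passed a filter of 500 UMIs and 200 genes as the lowest values and a mitochondrial share under 20%. The library taken as AngII+HS held 24804 barcodes and 117146856 UMIs, of which 24560 cells passed. The kept Control cells were deeper, with a median of 7576 UMIs against 3550 in AngII+HS. The barcode list recorded with each library had as many lines as the matrix of the other library. Each matrix was assigned to the sample it was recorded under, and a swap would reverse every direction between conditions given here. The 2 lists shared 67 barcodes, 0.270% of the longer and 0.585% of the shorter.

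cDC2 took a larger share of the cells in AngII+HS than in Control. There were 66 cDC2 in AngII+HS, 0.269% of the kept cells (exact binomial 95% interval 0.208 to 0.342%), and 4 in Control, 0.0354% (0.00966 to 0.0907%). The log2 ratio of the shares was 2.92 (1.50 to 4.84). The interval lay above 0, but the spread between animals was not measured. The other myeloid groups also took larger shares. C1q macrophages, gated with at least 10 C1q UMIs, made up 3.48% of the Control cells (393 cells) and 10.2% of the AngII+HS cells (2505 cells), a log2 ratio of 1.55 (1.40 to 1.71). cDC1 were 5 cells (0.0443%) and 25 cells (0.102%), with a log2 ratio of 1.20 (−0.21 to 2.94), an interval that spanned 0. Monocytes gated on *Ly6c2* were 27 cells (0.239%) and 159 cells (0.647%), and T cells 89 cells (0.788%) and 675 cells (2.75%). The log2 ratio was 1.44 (0.84 to 2.08) for these monocytes and 1.80 (1.48 to 2.14) for T cells. The interval for cDC2 overlapped those of cDC1, monocytes, T cells and C1q macrophages.

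Relative to cDC1, cDC2 were 4 of 9 cells in Control (44.4%, 13.7 to 78.8%) and 66 of 91 in AngII+HS (72.5%, 62.2 to 81.4%), and these intervals overlapped. Relative to C1q macrophages, cDC2 made up 1.01% (0.275 to 2.56%) in Control and 2.57% (1.99 to 3.25%) in AngII+HS, again with overlap. A share of kept cells also moves with the numbers of every other cell type in its library.

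**Figure D1:**
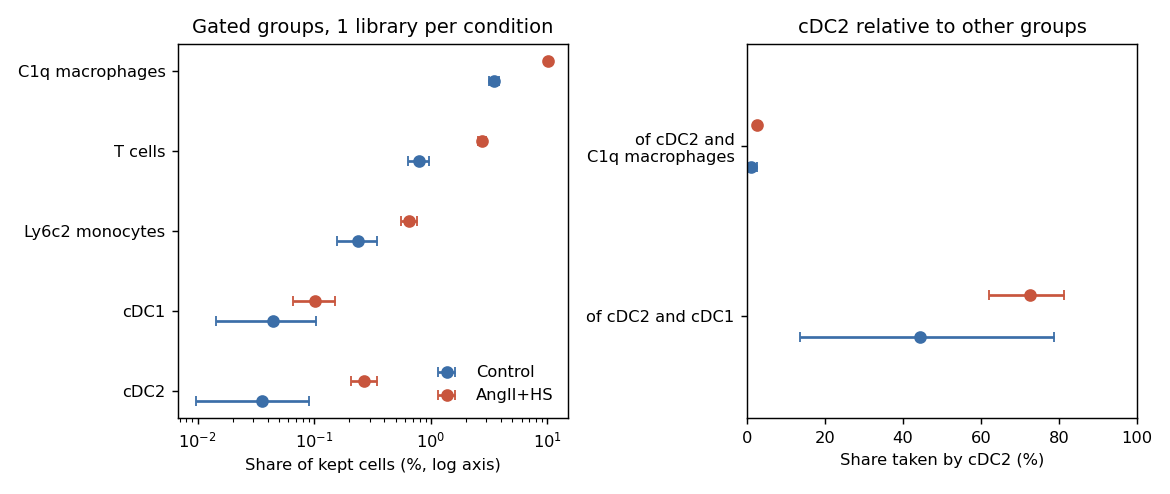
Left, the share of kept cells (%, log axis) taken by each of 5 gated groups in the Control (blue) and AngII+HS (red) library. Right, the share taken by cDC2 of cDC2 and cDC1 together and of cDC2 and C1q macrophages together (%). Points are 1 library each and bars are exact binomial 95% intervals. The cDC2 point lies at 0.0354% in Control and 0.269% in AngII+HS without overlap of the bars, while both pairs of bars on the right overlap.

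The gate removed most class II-positive cells at its *Cd209a* step. In AngII+HS, 3428 of 24560 cells had at least 5 *H2-Ab1* UMIs, 143 of these had at least 2 *Cd209a* UMIs, 142 stayed after the cDC1 limit, 89 after the *Ccr7* limit and 71 after the C1q limit. The lymphocyte limit removed 0 cells in either library, and the neutrophil limit then left 66. In Control the same steps left 241, 14, 14, 8 and 4 cells. Members in AngII+HS held 2, 5 and 22 *Cd209a* UMIs at the lowest, the median and the highest, and the 4 Control members held 3, 2, 7 and 3. For *H2-Ab1* the AngII+HS values were 5, 42.5 and 78, and the Control members held 36, 45, 51 and 8. The cDC2 thus lay far above the class II threshold for the most part and close to the *Cd209a* threshold.

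Cells just outside the gate were also measured in AngII+HS. There were 45 cells that missed only by having 1 *Cd209a* UMI, 504 with none, 39 with at least 2 *Ccr7* UMIs and 15 with at least 3 C1q UMIs. *Mgl2*, a galactose-type lectin found on cDC2 and some macrophages, stood at 683 CPM (counts of UMIs summed over a group and scaled to a total of 1000000) in the members and 221 CPM in the 45 cells with 1 *Cd209a* UMI. In the 504 cells without *Cd209a* it stood at 38.2 CPM. Inside the gate, *Mgl2* was at 704 CPM in the 32 members with 2 to 4 *Cd209a* UMIs and 663 CPM in the 34 members with 5 or more. *Apoe*, the apolipoprotein abundant in macrophages, was at 281 CPM in the members, 591 CPM in the cells with 1 *Cd209a* UMI, 2074 CPM in those with none and 3030 CPM in the 15 cells over the C1q limit. It was thus higher in each of these sets outside the gate than inside it. *Ccl22*, a chemokine of mature dendritic cells, was at 56.7 CPM in the members and 276 CPM in the 39 cells over the *Ccr7* limit. *Ccl17*, its neighbour with the same receptor, was at 320 CPM and 576 CPM, but 1 member gave 85.5% of the members' UMIs. *Flt3* differed less across these sets, with 82.5 CPM in the members, 105 CPM in the cells with 1 *Cd209a* UMI, 93.0 CPM over the *Ccr7* limit and 63.7 CPM without *Cd209a*.

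Dendritic cell genes that the gate did not use are given here as levels. In AngII+HS, *Flt3* (ENSMUSG00000042817, chr5:147267551-147337483 in GRCm39) stood at 82.5 CPM in cDC2, on 32 UMIs, and at 6.80 CPM in C1q macrophages. The log2 ratio was 3.61 (2.98 to 4.19). *Zbtb46*, the transcription factor of the conventional dendritic cell lineage, was at 116 CPM and 11.2 CPM, a log2 ratio of 3.38. *Irf4*, the factor of the cDC2 branch, was at 124 CPM in cDC2, 12.01 CPM in C1q macrophages and 8.77 CPM in cDC1. *Itgax*, which encodes CD11c, was at 142 CPM in cDC2 and 28.7 CPM in C1q macrophages. *Kit* (79.9 against 6.80 CPM) and *Dpp4* (77.3 against 3.96 CPM), a receptor tyrosine kinase and a peptidase carried by dendritic cells, were the other listed examples. Of the whole list of 16 conventional dendritic cell genes 7 had enough UMIs for the comparison with C1q macrophages, with 2 at least 2-fold higher, 1 lower and a median log2 ratio of −0.21. Over all 5298 genes with enough UMIs, 4.83% were at least 2-fold higher and 13.4% lower. *Id2*, a factor of the list of 16, was within 2-fold (392 CPM in cDC2 against 739 CPM). *Flt3*, *Zbtb46*, *Kit* and *Dpp4* were higher still in cDC1, at 342, 175, 101 and 206 CPM.

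Among cDC2 markers, *Mgl2* (683 against 58.2 CPM) and *Clec10a* (276 against 92.7 CPM), its close paralogue, had log2 ratios of 3.56 (3.35 to 3.75) and 1.58 (1.27 to 1.86). Reads near the 3′ end may be shared between these paralogues, and how they were assigned was not examined. *Klf4*, a transcription factor of a cDC2 subset, was at 425 CPM in cDC2 and 394 CPM in C1q macrophages, a log2 ratio of 0.12 (−0.12 to 0.33). *Itgam*, which encodes CD11b, was at 183 and 237 CPM. *Sirpa*, the inhibitory receptor often used to sort cDC2, was lower in cDC2 (139 CPM) than in C1q macrophages (331 CPM), with a log2 ratio of −1.24. Of the 11 listed cDC2 markers 6 entered, with 3 higher, 1 lower and a median of 0.85, beside 4.83% higher and 13.4% lower over all genes entered. *Flt3*, *Zbtb46*, *Irf4*, *Kit* and *Dpp4* were too low in the macrophages to enter, so they are not among the genes counted and their levels are given as a description. *Sirpa* went against the label, and *Itgam* and *Klf4* were within 2-fold of the macrophages.

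The AngII+HS cDC2 lacked RNA of most lymphocyte markers but held some macrophage and monocyte RNA. *Cd3d*, *Cd3g*, *Trac*, *Cd28*, *Cd4*, *Cd8a* and *Lck* had 0 UMIs, and so did *Ms4a1*, *Ighd* and *Pax5*. The B cell list summed to 149.5 CPM, of which *Ebf1*, a transcription factor, gave 38 UMIs in 9 cells and *Ighm*, an immunoglobulin chain, 18 UMIs in 14 cells, against a sum of 159 CPM in C1q macrophages. Of the T cell markers, *Il7r*, a cytokine receptor also made by some dendritic cells, held 67 UMIs. The natural killer markers *Ncr1*, *Gzma* and *Prf1* were at 0, and the mast cell markers were at 0 in both libraries. *Ly6c2* was at 33.5 CPM against 1711 CPM in the monocytes gated on it. *Folr2* and *Lyve1*, markers of resident adventitial macrophages, had 0 UMIs. The 25 macrophage markers summed to 1719 CPM in cDC2, with *Cd14* the most abundant at 606 CPM, against 27378 CPM in C1q macrophages, and 48 of 66 cDC2 (72.7%) held at least 5 of these UMIs. The 12 monocyte markers summed to 2988 CPM in cDC2, with *Ifitm3* the most abundant, against 11242 CPM in the gated monocytes, and 57 of 66 cDC2 (86.4%) held at least 5 UMIs. The part of this RNA in the results was not tested. The smooth muscle and fibroblast markers were not at 0, and are described with the variation between cells.

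These genes were not detected in every member, and the reason was not tested. *Flt3* was detected in 26 of the 66 cells (39.4%) and *Zbtb46* in 30, and 44 cells (66.7%, 54.0 to 77.8%) had a UMI of either. *Mgl2* was detected in 37 and *Clec10a* in 45, and 56 cells (84.8%, 73.9 to 92.5%) had a UMI of either. Both kinds of marker were detected together in 40 cells (60.6%). T cells, which should lack these genes, had *Flt3* in 0.593% of cells, *Mgl2* in 0.148%, *Clec10a* in 1.04% and *Zbtb46* in 10.8%, at a median depth of 2817 UMIs against 4686 in cDC2. With every cell thinned to 1000 UMIs the shares in cDC2 were 16.7% for *Flt3*, 36.4% for *Mgl2*, 30.3% for *Clec10a* and 10.6% for *Zbtb46*. The thinned share of *Zbtb46* in T cells was 3.14%, and those of the other 3 genes were at most 0.299%.

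**Figure D2:**
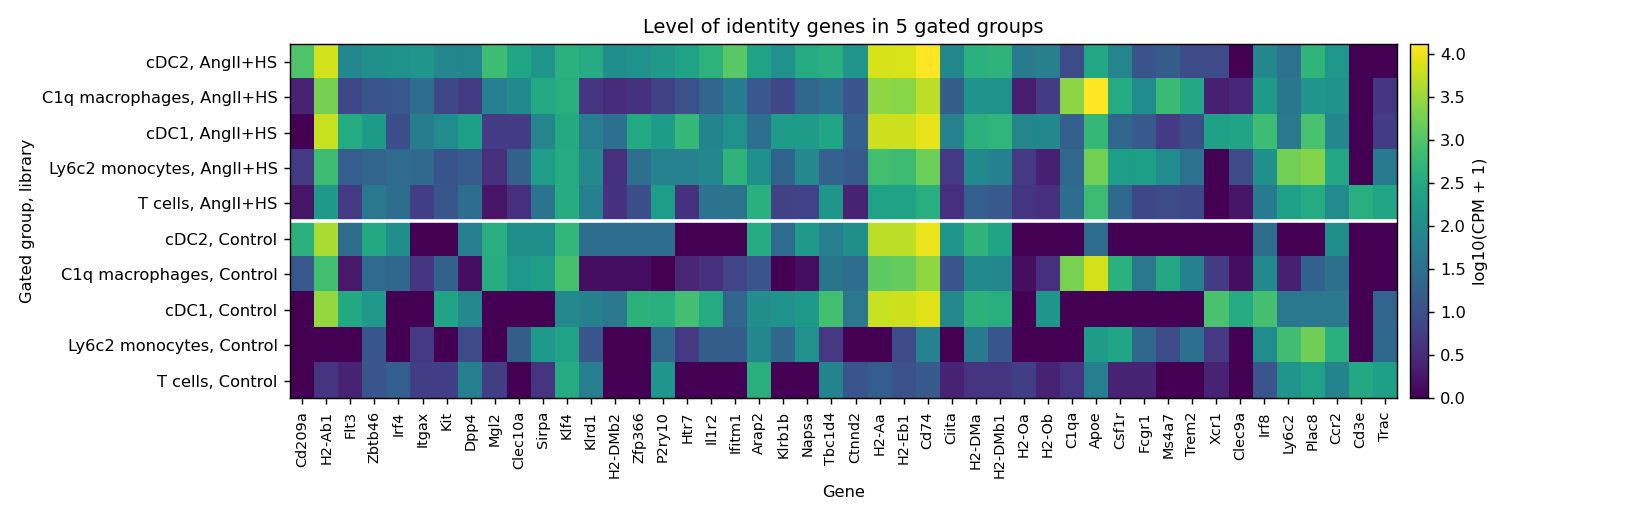
Levels (colour, log10(CPM + 1)) of identity genes (columns) in 5 gated groups of each library (rows, with AngII+HS above the white line and Control below). cDC2 of AngII+HS carry *Flt3*, *Zbtb46* and *Irf4* with the class II genes, and have 281 CPM of *Apoe* where C1q macrophages have 12824 CPM. They are near 0 for *Trac*, and for *Xcr1*, *Clec9a* and *Cd3e*, which the gate limits.

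Against the C1q macrophages of the same AngII+HS library, cDC2 were higher for class II and antigen-loading genes, for the receptor chain *Csf2rb* and for *Mgl2* and *Ifitm1*, and lower for macrophage markers, chemokines and lysosomal genes. A gene entered this comparison when at least 10 UMIs were due in the smaller group at the pooled rate of both groups. Of 5298 genes entered, 256 (4.83%) were at least 2-fold higher in cDC2 and 710 (13.4%) at least 2-fold lower, and the median log2 ratio of all of them was −0.05. The macrophages held 14405588 UMIs and the cDC2 387933, so the pooled rate is nearly the macrophage rate and keeps out genes that are low in macrophages, *Flt3* among them. With entry at the mean of both groups' rates, a choice made after the data were seen, 416 of 5281 genes (7.88%) were higher and 557 (10.5%) lower. A gene that enters only under this rule does so through its level in cDC2, so its direction is fixed by the entry and the counts under it support nothing.

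Among genes with 20 or more UMIs due under that second rule that were detected in 25% or more of the higher group's cells, the 12 highest ratios were led by *Klrd1* (ENSMUSG00000030165, chr6:129568677-129575738 in GRCm39), which encodes CD94, a lectin-like receptor best known from natural killer cells. It stood at 343 CPM in cDC2, on 133 UMIs, and at 3.68 CPM in C1q macrophages, a log2 ratio of 6.53 (6.07 to 7.03). A UMI of *Klrd1* was found in 40 of the 66 cDC2 (60.6%), 1.24% of the C1q macrophages and 15.6% of the T cells. cDC1 held 57.0 CPM, monocytes 87.1 CPM and T cells 58.1 CPM, so cDC2 had the highest level of the 5 groups. *H2-DMb2*, a chain of the peptide-loading molecule H2-DM, followed with 111 against 2.29 CPM (5.59, 4.91 to 6.30), and *Zfp366*, the zinc finger factor DC-SCRIPT, with 131 against 2.85 CPM (5.53, 4.91 to 6.16).

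*Il1r2* (chr1:40113239-40164391), the decoy receptor that binds interleukin 1 without signalling, was at 451 CPM in cDC2 and 21.2 CPM in C1q macrophages (4.41, 4.14 to 4.69). *Napsa*, an aspartic peptidase, was at 345 and 23.2 CPM (3.90, 3.60 to 4.19) and was the most widely detected of the 12, in 54 of 66 cDC2 (81.8%) against 10.6% of C1q macrophages and 1.19% of T cells. *Ifitm1* (chr7:140546316-140549743), an interferon-induced membrane protein that restricts virus entry, was at 1139 and 55.3 CPM (4.36, 4.19 to 4.53). *Htr7*, a serotonin receptor, was at 235 and 9.58 CPM (4.62, 4.22 to 5.01). A UMI of *Klrd1*, *Il1r2* or *Napsa* was found in 63 of the 66 members (95.5%), a share that the choice of widely detected genes raises. The other genes of the 12 were *P2ry10*, a lysophospholipid receptor (168 against 5.41 CPM), *Arap2* (240 against 12.01), the lectin-like receptor *Klrb1b* (121 against 6.59), *Tbc1d4* (407 against 30.3) and *Ctnnd2* (139 against 11.04). In *Tbc1d4*, 1 cell gave 32.9% of the UMIs. Of the 12, *Il1r2*, *Ifitm1*, *Napsa* and *Tbc1d4* also entered at the pooled rate.

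Under the pooled-rate rule the highest genes were *Ifitm1*, *Mgl2*, *Map3k14*, *Cd80*, *Tmtc2*, *Tmem131*, *Gpr183*, *Cytip*, *Ust*, *Fyn*, *Phlpp1* and *Pak1*. *Map3k14*, the kinase NIK of the noncanonical NF-kappaB pathway, was at 410 against 49.7 CPM (3.05, 2.79 to 3.29). *Cd80*, a ligand of the T cell receptors CD28 and CTLA-4, was at 322 against 54.1 CPM (2.58, 2.29 to 2.85). *Gpr183*, a receptor for oxysterols that positions dendritic cells in lymphoid tissue, was at 389 against 68.6 CPM (2.51, 2.25 to 2.75). *Cytip*, a protein that regulates adhesion of leukocytes, was detected in 92.4% of cDC2 and 46.4% of C1q macrophages.

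**Figure D3:**
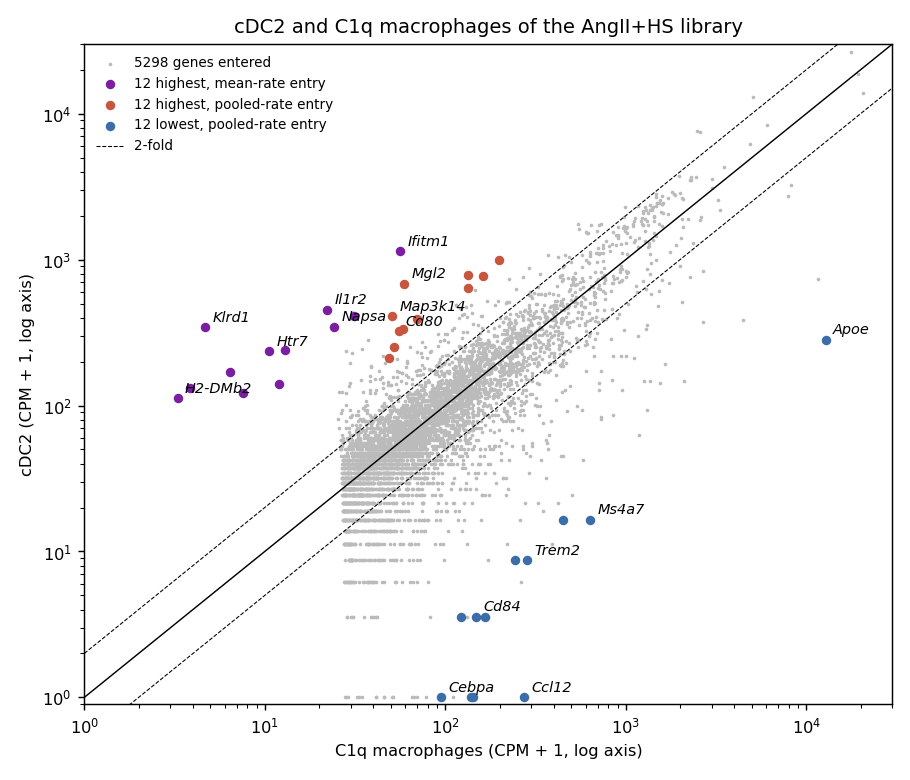
Level of each of 5298 entered genes in C1q macrophages (x axis) and cDC2 (y axis) of the AngII+HS library, both as CPM + 1 on log axes, with the solid line at equal levels and dashed lines at 2-fold. Purple points are the 12 highest genes under entry at the mean of both rates, red points the 12 highest and blue points the 12 lowest under entry at the pooled rate, with *Ifitm1*, which is in both sets of highest genes, in purple. *Klrd1* stands farthest above the lines, and *Apoe* lies far below at 281 against 12824 CPM.

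Most class II genes entered were higher in cDC2, where 4.83% of all genes entered were higher and 13.4% lower. Of the 15 listed genes of class II presentation, 8 entered under the pooled rate, of which 6 were at least 2-fold higher and 1 lower, with a median log2 ratio of 1.45. *Lgmn* was the 1 that was lower. Under entry at the mean rate 11 entered, with 9 higher, 1 lower and a median of 1.64, but the 3 added genes entered only through their level in cDC2. *H2-Aa*, the I-A alpha chain, was at 7452 CPM in cDC2, 2585 CPM in C1q macrophages, 6317 CPM in cDC1 and 748 CPM in monocytes. *H2-Eb1*, the I-E beta chain, was at 7656, 2465, 6400 and 656 CPM, and *Cd74*, the invariant chain that guides class II molecules through the cell, at 13095, 5066, 9548 and 1608 CPM. The log2 ratios of cDC2 to C1q macrophages were 1.53 (1.47 to 1.58), 1.64 and 1.37. *Ciita*, the master activator of class II transcription, was at 82.5 against 15.3 CPM (2.45) but did not enter at the pooled rate. These 4 genes kept the same order, with cDC2 above cDC1, cDC1 above macrophages and macrophages above monocytes. The gates of cDC2 and cDC1 asked for at least 5 *H2-Ab1* UMIs, and those of macrophages and monocytes had no such limit. That choice raises genes that vary with *H2-Ab1*. The order and the class II ratios to macrophages and monocytes are therefore a description, in both libraries.

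Of the genes that edit the peptides on class II molecules, *H2-DMa* and *H2-DMb1* entered at the pooled rate. *H2-DMa* (418 against 123 CPM) and *H2-DMb1* (474 against 129 CPM) form H2-DM, with log2 ratios of 1.77 and 1.88. *H2-Oa* (49.0 against 1.18 CPM) and *H2-Ob* (61.9 against 4.37 CPM) form H2-DO, an inhibitor of H2-DM, with log2 ratios of 5.37 (4.35 to 6.41) and 3.84. cDC1 held 74.5 CPM of *H2-Oa* and 83.3 CPM of *H2-Ob*. Neither gene entered at the pooled rate, so these levels are a description. *H2-DMb2*, which did not enter against macrophages either, was at 111 CPM in cDC2 and 30.7 CPM in cDC1 (1.77). *Ifi30*, the thiol reductase GILT of the endosome, was at 1036 against 422 CPM (1.30). Of the proteases that prepare antigen, *Lgmn* was lower, at 296 against 1168 CPM (−1.97). *Ctss* was within 2-fold, at 1129 against 1758 CPM (−0.64).

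The promoters of 6 class II genes are shown because they share one short motif near the start site. Of these *H2-DMb2*, *H2-Oa* and *H2-Ob* did not enter the comparison with macrophages, and *H2-DMa* and *Ifi30*, which were higher, lack it in this window. The windows run from 110 to 31 bases before the RefSeq start in GRCm38.p6, with the strand of the gene, and the capitals mark ATTGG, the reverse complement of the CCAAT letters that a Y box contains.
H2-Aa, chr17:34287854-34287933, minus strand: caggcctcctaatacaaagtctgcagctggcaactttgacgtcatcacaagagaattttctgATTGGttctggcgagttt
H2-Eb1, chr17:34305757-34305836, plus strand: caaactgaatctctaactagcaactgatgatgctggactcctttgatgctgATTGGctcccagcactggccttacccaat
H2-DMb1, chr17:34153081-34153160, plus strand: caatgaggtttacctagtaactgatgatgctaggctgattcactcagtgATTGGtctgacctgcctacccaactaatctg
H2-DMb2, chr17:34145139-34145218, plus strand: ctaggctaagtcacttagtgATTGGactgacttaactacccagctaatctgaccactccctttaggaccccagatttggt
H2-Oa, chr17:34092269-34092348, plus strand: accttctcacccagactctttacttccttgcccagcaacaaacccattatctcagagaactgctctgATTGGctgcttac
H2-Ob, chr17:34238795-34238874, plus strand: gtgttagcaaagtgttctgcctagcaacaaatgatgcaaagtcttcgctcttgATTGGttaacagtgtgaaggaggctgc
ATTGG begins 48 bases before the start in *H2-Aa*, 59 in *H2-Eb1*, 61 in *H2-DMb1*, 90 in *H2-DMb2*, 43 in *H2-Oa* and 57 in *H2-Ob*. It was also present for *H2-Eb2* and for *Lgmn*, which was lower in cDC2. Of the 15 listed genes 12 had an entry in the RefSeq table, with 16 start windows, and 8 of the 16 windows (50%) held ATTGG on the gene's strand. Among all 32851 windows of the same length 2956 (8.998%) held it on the gene's strand and 5435 (16.5%) on either strand. The motif and the window were chosen after the sequences were seen, so the counts describe these windows only. *H2-Ab1*, *Cd74* and *Ciita* are named only.

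Ligands for T cell receptors mostly differed by less than 2-fold, as did most of all genes entered. Of 11 listed costimulation and checkpoint genes 7 entered under the pooled rate, with 1 at least 2-fold higher (*Cd80*), 0 lower and a median of 0.25. Over all genes entered 4.83% were higher and 13.4% lower, and 7 genes are too few to differ from these shares. *Cd86*, the partner of *Cd80*, was at 737 against 503 CPM (0.55), *Cd274*, which encodes PD-L1, at 237 against 126 CPM (0.92) and *Cd40* at 74.8 against 82.7 CPM. *Tnfsf4*, the ligand of OX40, was at 49.0 against 2.92 CPM (4.09), and *Pdcd1lg2*, which encodes PD-L2, at 23.2 against 4.10 CPM (2.57), but neither entered under the pooled rate. *Cd83*, a marker of dendritic cell activation, did not separate the groups, with 626 and 627 CPM (0.00).

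Of 7 listed receptors for growth factors of myeloid cells 5 entered, with 2 higher and 2 lower and a median of 0.26. Among all genes entered 4.83% were higher and 13.4% lower. *Csf2rb*, the beta chain shared by the receptors for GM-CSF, interleukin 3 and interleukin 5, was at 459 CPM in cDC2 and 121 CPM in C1q macrophages (1.92), and its paralogue *Csf2rb2* at 92.8 and 42.0 CPM (1.16). *Csf1r*, the receptor of macrophage growth factors, was at 74.8 against 346 CPM (−2.19) and was detected in 20 of 66 cDC2 and 78.8% of C1q macrophages. *Csf2ra* was at 150 and 126 CPM. The *Csf1r* and *Flt3* transcripts were detected together in 9 cDC2.

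Lectins and sensors differed gene by gene, where 4.83% of all genes entered were higher and 13.4% lower. Of 22 listed C-type lectin receptors 11 entered, with 3 higher and 7 lower and a median of −1.30. *Clec7a*, the beta-glucan receptor Dectin-1, was at 410 against 159 CPM (1.37), and *Clec4b1*, the dendritic cell immunoactivating receptor, at 106 against 18.5 CPM (2.53), although the latter was too low in macrophages to enter. *Clec4d* (56.7 against 360 CPM, −2.64), *Clec4e* (119 against 296 CPM, −1.30) and *Mrc1* (90.2 against 474 CPM, −2.37), receptors for mycobacterial lipids and mannose, were lower. Of 20 listed innate sensors 7 entered, with 1 higher, 3 lower and a median of −0.93. *Tlr2* was at 77.3 against 382 CPM (−2.28) and *Cd14*, the co-receptor for lipopolysaccharide, at 606 against 1517 CPM (−1.32), whereas *Sting1*, the adaptor for cytosolic DNA sensing, was at 77.3 against 33.6 CPM (1.23). Of 7 listed Fc receptors 6 entered and 3 were lower, *Fcgr1* at 10.3 against 96.1 CPM (−3.05), *Fcgr3* at 28.4 against 190 CPM (−2.68) and *Fcgr4* (−1.67), with none higher.

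All 20 macrophage markers that entered, of 25 listed, were at least 2-fold lower in cDC2, with a median of −3.05 (−3.02 with a gene at 0 set to 3 counts). Of these 25 the C1q genes belong to the gate. The macrophages were chosen by at least 10 C1q UMIs and the cDC2 by at most 2. The pooled rate also keeps out markers that are low in macrophages. Both favour lower values in cDC2, so the count is a description, as is that of the Control library. *Apoe* was at 281 against 12824 CPM (−5.51, −5.80 to −5.24) and *Ms4a7* at 15.5 against 633 CPM (−5.24, −6.80 to −4.23). *Adgre1*, which encodes F4/80, was at 30.9 against 362 CPM (−3.49). *Trem2*, a lipid receptor, had 3 UMIs in cDC2 (7.73 against 283 CPM, −4.97, −7.47 to −3.64). Under entry at the mean rate 19 of 20 were lower and *Timd4*, a phosphatidylserine receptor, was higher (54.1 against 3.47 CPM on 21 UMIs, 3.98).

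The 12 lowest genes with at least 20 UMIs due at the pooled rate also included 4 with 0 UMIs in cDC2. *Ccl12*, a monocyte-attracting chemokine, had 3940 UMIs in C1q macrophages (274 CPM). A floor of 3 counts over the cDC2 group puts its log2 ratio at −5.14, and the exact 95% interval ended at −4.85. *Aoah*, which inactivates lipopolysaccharide (141 CPM in C1q macrophages), the noncoding *4930430E12Rik* (138 CPM) and *Cebpa*, a myeloid transcription factor (93.4 CPM), were at −4.19, −4.16 and −3.59 with that floor. Their intervals ended at −3.89, −3.86 and −3.29. *Kcnk13*, *Cd84* and *Msr1* had 1 UMI each in cDC2. For *Kcnk13* the ratio was −5.41 (−11.30 to −3.52). *C5ar1*, the receptor of complement C5a, was at 15.5 against 450 CPM (−4.75). Genes with 0 or 1 UMI in cDC2 entered only through their level in the macrophages. Their direction is thus fixed by the entry, and their values are a description.

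Lysosomal and lipid genes were lower as groups, where 4.83% of all genes entered were higher and 13.4% lower. Of 14 cathepsins and lysosomal genes 13 entered, with 0 higher, 8 lower and a median of −1.39. *Ctsb* was at 374 against 2659 CPM (−2.83) and *Ctsd* at 191 against 1638 CPM (−3.09), both major lysosomal proteases. *Ctsh* (430 against 478 CPM, −0.15) and *Cst3*, the cathepsin inhibitor cystatin C (2629 against 2034 CPM, 0.37), differed little, and cDC1 held 9167 CPM of *Cst3*. All 10 lipid-associated macrophage genes entered, with 0 higher, 7 lower and a median of −3.18. *Spp1*, which encodes osteopontin, was at 61.9 against 1188 CPM (−4.23) and *Cd36*, a fatty acid receptor, at 20.6 against 277 CPM (−3.66). The tetraspanin *Cd9* was at 443 against 373 CPM (0.26).

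cDC2 held less RNA of most cytokines and chemokines than the macrophages. Among all genes entered 4.83% were higher and 13.4% lower. Of 18 listed cytokines 10 entered, with 0 higher and 7 lower and a median of −1.81. *Il10*, an anti-inflammatory cytokine, was at 20.6 against 421 CPM (−4.26) and *Tnf* at 85.1 against 843 CPM (−3.29). *Il1b*, which encodes interleukin 1 beta, was the exception among the abundant ones, at 2774 against 1876 CPM (0.56), and was detected in 61 of 66 cDC2. *Il1rn*, the interleukin 1 receptor antagonist, was lower (108 against 407 CPM, −1.89), while the decoy *Il1r2* was higher, as given with the highest genes. Of 18 listed chemokines 15 entered, with 0 higher, 12 lower and a median of −2.87. *Cxcl2*, which attracts neutrophils, was at 730 against 11675 CPM (−4.00) and *Ccl7*, which attracts monocytes, at 147 against 2093 CPM (−3.82). *Cxcl10* (585 against 677 CPM, −0.21), *Cxcl16* (284 against 419 CPM, −0.56) and *Ccl5* (430 against 349 CPM, 0.31), which attract T cells, differed by less than 2-fold.

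Entry at the mean rate added chemokines that were higher in cDC2, for 3 higher and 11 lower of 17 and a median of −2.01. Among all genes that entered at that rate 7.88% were higher and 10.5% lower. *Ccl22* was at 56.7 against 5.55 CPM (3.38). For *Ccl17* (320 against 2.64 CPM, 6.91) 1 cell gave 85.5% of the UMIs, and for *Cxcl9* (95.4 against 18.9 CPM, 2.35) 1 cell gave 97.3%. Those values describe single cells rather than the group. Of 14 cell cycle genes 4 entered and 0 were at least 2-fold apart, too few to differ from the shares over all genes. *Mki67*, a marker of dividing cells, was at 56.7 and 47.6 CPM and was detected in 10 of 66 cDC2. Of 11 genes of the renin-angiotensin system and of salt response, 4 entered and 0 were 2-fold apart. The angiotensin receptors *Agtr1a*, *Agtr1b* and *Agtr2* had 0 UMIs in cDC2. *Nfat5*, the osmotic stress factor, was at 312 and 350 CPM, and *Sgk1*, a salt-inducible kinase, at 116 and 222 CPM (−0.92).

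**Figure D4:**
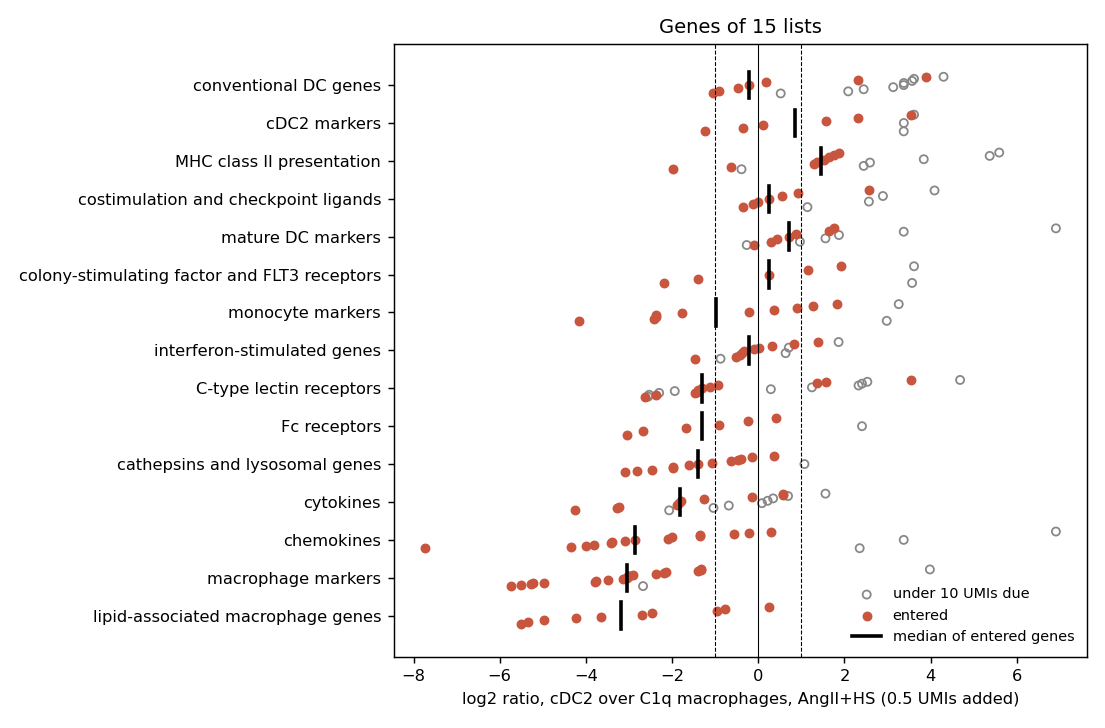
log2 ratio of cDC2 over C1q macrophages in the AngII+HS library (x axis) for the genes of 15 lists (rows), without the genes of the gate. Filled points entered under the pooled rate, open points had fewer than 10 UMIs due, bars mark the median of the filled points, and dashed lines mark 2-fold. The class II row lies mostly right of 1, with a median of 1.45, and the macrophage marker row lies wholly left of −1 in its filled points, with a median of −3.05.

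The 4 Control cDC2 could be set against the 393 C1q macrophages of the Control library. Of 619 genes entered, 59 (9.53%) were at least 2-fold higher and 169 (27.3%) at least 2-fold lower, with a median log2 ratio of −0.20. The balance turned with entry at the mean of both rates (134 higher and 93 lower), and TMM scaling gave 15 and 247. All 12 macrophage markers entered were lower (median −3.74, or −3.21 with genes at 0 set to 3 counts). Of 5 class II genes entered, 3 were higher and 1 lower (median 1.88). *H2-Aa* was at 5093 against 1245 CPM (2.04), *H2-Eb1* at 5176 against 1391 CPM (1.90) and *Cd74* at 10046 against 2734 CPM (1.88). *Zbtb46* was at 306 against 26.7 CPM and *Irf4* at 111 against 23.6 CPM, on 11 and 4 UMIs, of which 9 *Zbtb46* UMIs were in 1 cell. Like *Flt3*, with 1 UMI, and *Il1b*, these genes did not enter. *Mgl2*, which did, was at 390 against 364 CPM (0.15). *Il1b* was at 2950 CPM in Control cDC2 and 117 CPM in Control macrophages (4.66), but 89 of its 106 UMIs in Control cDC2 came from the cell with 300 wall marker UMIs. The log2 ratio in AngII+HS was 0.56.

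cDC1 of the AngII+HS library, 25 cells with at least 2 UMIs of *Xcr1* and *Clec9a* together, were close in class II level and differed in cDC1 markers. Of 3626 genes entered, 401 (11.1%) were at least 2-fold higher in cDC2 and 289 (7.97%) at least 2-fold lower, with a median of 0.00. Of 12 class II genes entered, 2 were higher and 0 lower, with a median of 0.28. Of 6 cDC1 markers entered outside the gate all 6 were lower in cDC2 (median −3.03). *Irf8*, the factor of the cDC1 branch, was at 82.5 against 684 CPM (−3.03), *Wdfy4*, needed for cross-presentation, at 74.8 against 697 CPM (−3.20), and *Cadm1*, an adhesion molecule, at 43.8 against 592 CPM (−3.72). *Id2*, an inhibitor of helix-loop-helix factors, was at 392 CPM in cDC2 and 1179 CPM in cDC1. *Klrd1* (2.54, 1.77 to 3.54), *Il1r2* (2.64, 1.95 to 3.52) and *Ifitm1* (3.19, 2.66 to 3.82) were higher in cDC2 than in cDC1, whereas *Zfp366* (−1.30, −1.85 to −0.77) and *Htr7* (−1.24, −1.65 to −0.85) were lower.

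Interferon-stimulated genes were higher in cDC2 than in cDC1, some of them mainly through a few cells. Of 6 entered 5 were higher in cDC2 and 0 lower, with a median of 4.18, or 3.08 with genes at 0 in cDC1 set to 3 counts. Among all genes entered against cDC1 11.1% were higher. *Isg15*, a ubiquitin-like modifier, was at 289 CPM in cDC2 and 26.3 CPM in cDC1, *Rsad2*, the antiviral enzyme viperin, at 211 and 4.38 CPM, and *Ifit1* at 206 CPM and 0. C1q macrophages held 233, 286 and 117 CPM of these 3 genes. In cDC2, 3 cells gave 70.7% of the *Rsad2* UMIs and 70% of those of *Ifit1*. For *Isg15*, found in 24 of 66 cells, 3 cells gave 43.8%. The median cell held 3 UMIs of the whole list, and 25 of 66 cells (37.9%) held at least 5. The cDC1 group was 25 cells, so its low levels rest on few UMIs.

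The 159 monocytes gated on *Ly6c2* differed from cDC2 in class II and dendritic cell genes. Their gate had no limit on *H2-Ab1*, unlike that of cDC2, so the class II counts are a description. Of these monocytes 11 also passed the T cell gate, and no cDC2 did. Of 5282 genes entered, 337 (6.38%) were at least 2-fold higher in cDC2 and 599 (11.3%) at least 2-fold lower, with a median of −0.07. Of 9 cDC2 markers entered, 6 were higher and 0 lower (median 2.32), of 14 conventional dendritic cell genes 8 and 0 (2.11), and of 10 class II genes 8 and 1 (2.96). Of 12 monocyte markers entered, which include *Ly6c2*, the gene that chose these monocytes, 0 were higher and 8 lower (−2.50), and of 14 macrophage markers 1 and 9 (−1.50). *Plac8*, a gene of monocytes and dendritic cell precursors, was at 490 CPM in cDC2, 2224 CPM in monocytes and 138 CPM in C1q macrophages. *Ccr2*, the receptor that brings monocytes into tissue, was detected in 33 of 66 cDC2, with 157 CPM against 123 CPM in C1q macrophages (0.36). *Fcgr1*, which marks monocyte-derived cells, was detected in 4 of 66.

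Among the 66 AngII+HS cells, variation between cells was measured after thinning each to 1000 UMIs. Over 862 genes with at least 0.2 UMIs per thinned cell on average, the median ratio of variance to mean was 1.15. The 12 highest were *Mgp* (36.3), *Ccl4* (31.6), *Ccl17* (13.1), *Hspa1a* (12.3), *Tagln* (9.28), *Rgs5* (8.75), *Acta2* (7.97), *Dcn* (6.67), *Dmd* (6.61), *Malat1* (6.50), *Fn1* (6.47) and *Tmsb4x* (6.40). Several of these genes are abundant in cells of the aortic wall. *Mgp*, *Acta2* and *Tagln* encode matrix Gla protein and contractile proteins of smooth muscle, and 1 cell gave 76.4%, 70.02% and 69.7% of their UMIs. *Dcn*, which encodes the fibroblast proteoglycan decorin, had 33.1% of its UMIs in 1 cell.

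Summed over fibroblast, smooth muscle and endothelial markers, AngII+HS members held 0, 5 and 599 UMIs at the lowest, the median and the highest. At least 20 such UMIs were found in 9 of the 66 cells, and 8 of these 9 were also among the 14 members that doublet scoring marked. Of the 4 Control members, 1 held 300 wall UMIs and was marked, and the others held 4, 3 and 1. Members were marked at 21.2% in AngII+HS, against 19.6% of that library's cells. The latter share was not measured, because the number of cells to mark was set from the library's cell number.

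*Ccl4*, a chemokine that attracts T cells and monocytes, varied within the group in another way. It held 0, 1 and 206 UMIs per cell at the lowest, the median and the highest, was detected in 36 cells, and its top cell gave 16.5% of the UMIs. *Il1b* held 0, 11 and 100 UMIs and *Mgl2* 0, 1 and 39. *Ifitm1* differed with the *Cd209a* count, at 1819 CPM in the 32 members with 2 to 4 *Cd209a* UMIs and 504 CPM in the 34 with 5 or more. The 45 cells with 1 *Cd209a* UMI held 2086 CPM of it. *Klrd1* (416 and 274 CPM) and *Napsa* (416 and 279 CPM) differed less between the same sets, and *Il1r2* was level (448 and 454 CPM).

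**Figure D5:**
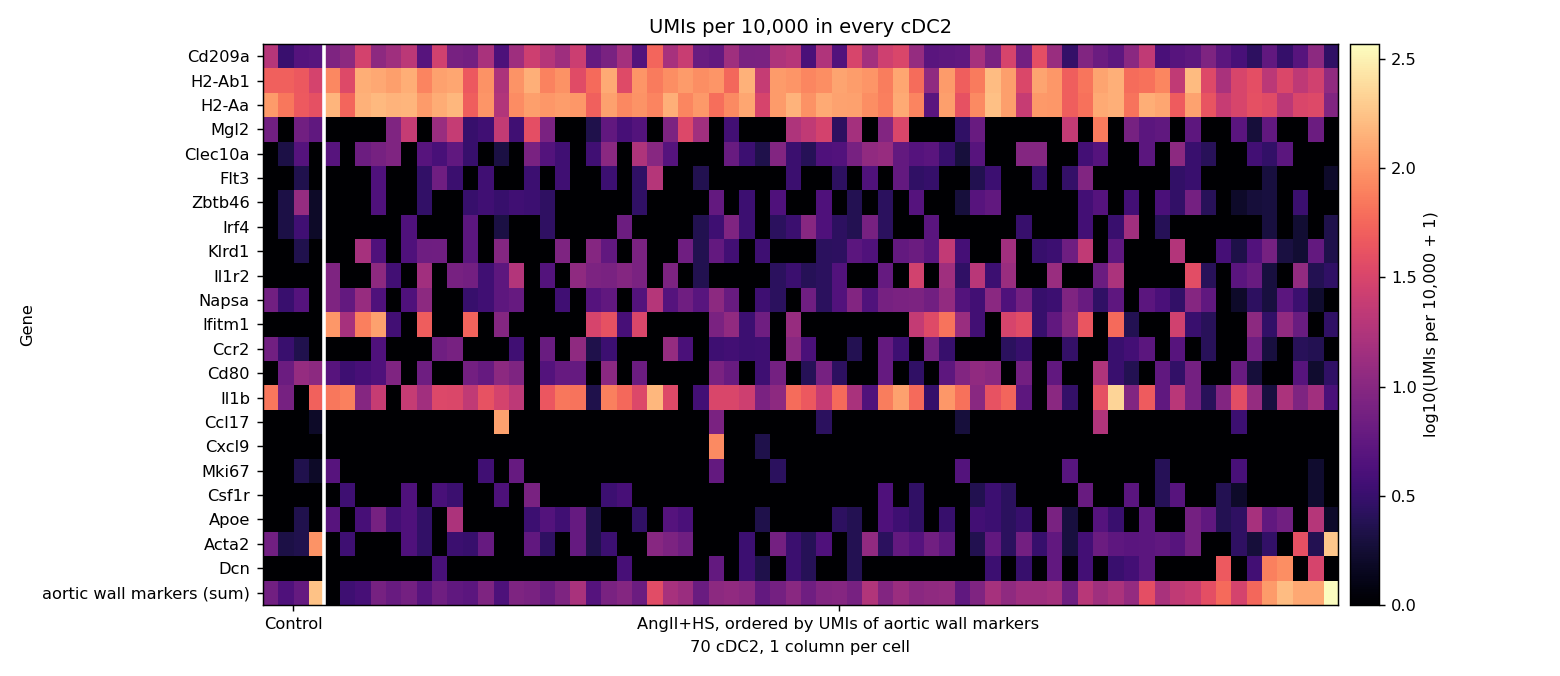
UMIs per 10000 (colour, log10 scale after adding 1) of selected genes (rows) in each of the 70 cDC2 (columns). The 4 Control cells are left of the white line and the 66 AngII+HS cells right of it, ordered by their UMIs of aortic wall markers (bottom row). *H2-Ab1*, which the gate requires, and *H2-Aa* were detected in every column, and the wall markers are concentrated in the last columns of each library.

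cDC2 of AngII+HS and Control were compared last, and this comparison rests on 4 Control cells with 35934 UMIs. Of 571 genes entered, 89 (15.6%) were at least 2-fold higher in AngII+HS and 61 (10.7%) at least 2-fold lower, with a median log2 ratio of 0.18. Under TMM scaling, which assumes that most genes do not differ, the median was 0.63 and the counts were 186 and 32. The balance turned with entry at the mean of both rates (52 higher and 117 lower) and with 3 UMIs added (47 and 72). In C1q macrophages, 1070 of 10535 genes (10.2%) were at least 2-fold higher and 1130 (10.7%) lower.

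The class II chains named here differed by less than 2-fold between the conditions. The 4 Control cells held 37, 61, 68 and 17 UMIs of *H2-Aa*, and the AngII+HS cells 2, 44.5 and 82 at the lowest, the median and the highest, so the groups overlapped. The CPM were 5093 in Control and 7452 in AngII+HS (0.55, 0.33 to 0.77). *Cd74* was at 10046 and 13095 CPM (0.38). Of 8 class II genes entered 2 were at least 2-fold higher and 0 lower (median 0.70), and in C1q macrophages 3 of 10 were higher and 0 lower (median 0.86). Of all genes entered 15.6% were higher. The 2 were *Ifi30* (167 and 1036 CPM, 2.52, 1.50 to 4.09) and *Ctss* (334 and 1129 CPM, 1.70, 0.94 to 2.72), which were also higher in the macrophages, by 2.12 and 2.33.

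*Ifitm1* had 0 UMIs in all 4 Control cells and 442 UMIs (1139 CPM) in AngII+HS. Against a floor of 3 counts in the Control group its log2 ratio was 3.77, and the exact 95% interval began at 3.47. In C1q macrophages the ratio was 3.10. *Ifitm3* (362 and 1730 CPM, 2.20, 1.47 to 3.17) and *Ifitm2* (417 and 1719 CPM, 1.996) of the same family were higher too, by 0.97 and 0.66 in the macrophages. *Cd14* was at 111 and 606 CPM (2.28, 1.07 to 4.33), *Bcl2a1b*, an inhibitor of apoptosis, at 223 and 1083 CPM (2.20), the histone gene *H2az1* at 584 and 2307 CPM (1.95) and the copper chaperone *Atox1* at 278 and 1085 CPM (1.89). *Dcn* had 0 UMIs in Control and 686 CPM in AngII+HS, of which 3 cells gave 79.7%. Of the genes with the highest ratios to macrophages, *Klrd1* had 1 UMI, *Il1r2* and *Htr7* had 0 and *Napsa* had 6 UMIs in the 4 Control cells. For *Napsa* the log2 ratio of AngII+HS to Control was 0.94 (−0.11 to 2.52).

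Immediate early and heat shock genes were lower in AngII+HS cDC2, where 15.6% of all genes entered were higher and 10.7% lower. Of 10 entered 9 were at least 2-fold lower and 0 higher, with a median of −1.99, and in C1q macrophages 7 of 11 were lower and 0 higher (median −1.06). *Atf3*, a stress-induced transcription factor, held 19, 63, 62 and 0 UMIs in the Control cells, 4007 CPM in all, and 379 CPM in AngII+HS (−3.40, −3.74 to −3.06). *Fos* held 4, 18, 87 and 0 UMIs, 3033 CPM in all, and 714 CPM in AngII+HS (−2.09). *Egr1* was at 2421 and 284 CPM (−3.10) and *Jun* at 1837 and 278 CPM (−2.73). In Control 1 cell gave 74.7% of the *Egr1* UMIs and 79.8% of those of *Fos*, and 2 cells held all those of *Jun*. The cell with 300 wall marker UMIs held 87 of the 109 *Fos* UMIs. Without the members that held at least 20 wall marker UMIs, which leaves 3 Control cells, 4 of 6 genes entered were lower and 0 higher (median −1.43), with *Fos* at −1.50 and *Atf3* at −3.73. Genes of this list can be induced by tissue dissociation, and the part of dissociation in the difference was not tested.

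Several of the remaining lowest genes also rested on 1 or 2 of the Control cells. *Acta2* (4814 and 1101 CPM, −2.13) and *Tagln* (−1.62) had 170 and 73 of their Control UMIs in the cell with 300 wall marker UMIs. Without members that held at least 20 wall marker UMIs, the log2 ratios were 0.40 and 1.02, a reversed direction. *Cxcl2* held 0, 69, 7 and 0 UMIs in the Control cells (2115 and 730 CPM, −1.54), and *Cxcl10* 16, 0, 46 and 0 (1725 and 585 CPM, −1.57, −1.97 to −1.13). Without the members with wall markers *Cxcl10* was at −0.14, within 2-fold. *Hsp90aa1*, a chaperone, was at 3479 and 1150 CPM (−1.60). *Ifrd1* (−1.68), *Ppp1r15a* (−1.54) and *Gm47283* (−1.66) completed the lowest 10 among genes with at least 20 UMIs due, which leave out *Egr1* and *Jun*. With each cell thinned to 2000 UMIs before gating, *Atf3*, *Fos*, *Ifrd1*, *Tagln*, *Hsp90aa1*, *Cxcl10* and *Cxcl2* reversed their direction. That setting also changes which cells pass the gate.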

How the data were processed

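Single-cell suspensions were made from enzyme-digested aorta passed through a 40 µm strainer and run on the 10x Genomics 3′ platform. The authors made the deposited counts, which give UMIs per gene and barcode without normalization, with Cell Ranger. The matrix headers give version 8.0.1, and the submitters' processing notes name mm10 whereas the methods name GRCm39. The deposited barcode lists were not used. Cells were kept by the study's filter, and the study removed doublets with DoubletFinder. Here Scrublet (scanpy 1.11.5) scored doublets, which were left in, and their removal was an alternative. The highest scores were marked, up to a share set beforehand from the library's cell number. Groups were gated on raw UMIs as given in the report, and no clusters were made.

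UMIs were summed over the cells of a group and library. Log2 ratios of CPM had 0.5 UMIs added to each sum, with exact conditional 95% intervals. Shares had exact Clopper-Pearson 95% intervals. Cells of 1 library are not replicates, so no p-values are given, and a gene was called at 2-fold or more. Genes entered with at least 10 UMIs due in the smaller group at the pooled rate. Genes were named by membership of 1 of 30 lists, as the 12 highest and 12 lowest ratios to C1q macrophages, as the 10 highest and 10 lowest ratios of AngII+HS to Control in cDC2, or as the 12 highest ratios of variance to mean. For both kinds of ratio at least 20 UMIs had to be due, with detection in at least 25% of the cells of the higher group. The 12 genes of the gate were left out. The cells, lists and rules were chosen with earlier results of these data known. Entry at the mean of both rates and the removal of members with at least 20 wall marker UMIs were added after the data were seen.

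Simulated data tested the ratios with 200 genes changed 2-fold. Summed counts were drawn from a Poisson distribution at the pooled rate of each gene, without variation between cells. The test therefore covers counting error only, and does not show how the intervals hold for genes that vary between cells. For cDC2 over C1q macrophages (5305 genes) 99.5% of changed genes had the right direction and 96.3% of intervals held the true value. For AngII+HS over Control in cDC2 (573 genes) these were 100% and 96.7%. Python 3.11.15, numpy 2.4.6, scipy 1.17.1, pandas 2.3.3, matplotlib 3.10.9, R 4.3.3 and edgeR 4.0.16 (for TMM scaling of the summed counts only) were used. Gene coordinates are from a GRCm39 annotation and promoter sequences from RefSeq on GRCm38.p6.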

Additional observations from a re-analysis of the deposited data

Results flagged for a closer look

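*Cxcl10*, a chemokine that attracts T cells through CXCR3, differed between AngII+HS and Control in opposite directions in cDC2 and in C1q macrophages. The log2 ratio of AngII+HS to Control was −1.57 in cDC2 (−1.97 to −1.13, 585 against 1725 CPM) and 0.22 in C1q macrophages (0.14 to 0.30, 677 against 582 CPM). With 1 library per condition the difference between the groups was not tested. In Control 2 of the 4 cDC2 held all the *Cxcl10* UMIs, with 16 and 46. The cell with 46 was marked as a doublet and held 300 wall marker UMIs, and without the members that held at least 20 such UMIs the ratio in cDC2 was −0.14. With cells thinned to 2000 UMIs before gating the ratio in cDC2 was 2.64.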

How the results depend on the processing

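The log2 ratio of the cDC2 shares stayed between 2.90 and 3.68 under every alternative run. Of the summary values recomputed, 166 stayed, 53 moved and 3 reversed. A count of genes stayed when it was within a set factor of the reported count. A share or list median stayed when it was inside an interval for counting error. None of the 24 genes named against C1q macrophages at the pooled rate reversed under the alternatives run. No paired analysis was possible because each condition had 1 library, and no replicate could be left out. The Control side of the condition comparison rests on 4 cells. The cause of each change below was not tested.

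With marked doublets removed, the medians were 1.51 for class II genes and −1.90 for cathepsins, 85 genes were lower than in Control macrophages, and 42 genes were higher and 25 lower in AngII+HS than in Control. There *Acta2* (2.84), *Tagln* (3.37) and *Ppp1r15a* (0.31) reversed. Without members that held at least 20 wall marker UMIs, an alternative added after the data were seen, the medians were 1.76 and −2.05, 37 and 81 genes were higher and lower than in Control macrophages, and 39 and 27 between conditions, and *Acta2* (0.40), *Tagln* (1.02) and *Ppp1r15a* (0.34) reversed. With *Cd209a* of at least 1 UMI the AngII+HS share was 0.452%, the chemokine median −2.13 and the median of conventional dendritic cell genes 0.13, against −0.21 in the report's setting. With at least 3 UMIs these were 0.208% for the share and −0.65 for that median, and *Hsp90aa1* (0.42) and *Cxcl2* (1.31) reversed. With no C1q UMI allowed 55 genes were higher in AngII+HS, and *Hsp90aa1* (0.55) and *Cxcl2* (1.30) reversed. With C1q macrophages of at least 5 C1q UMIs the class II median was 1.52.

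With cells thinned to 2000 UMIs, 100 genes were higher and 301 lower than in AngII+HS macrophages, 3 and 13 in Control, and 6 and 0 between conditions. *Atf3* (0.40), *Fos* (0.21), *Ifrd1* (0.87), *Tagln* (0.97), *Hsp90aa1* (1.76), *Cxcl10* (2.64) and *Cxcl2* (1.94) reversed. Under TMM scaling the class II median was 1.35, 15 genes were higher than in Control macrophages, and 186 were higher and 32 lower between conditions. With no filter on low counts the counts were 8614 and 2164 against AngII+HS macrophages, 10541 and 1545 in Control, and 1322 and 5802 between conditions, and the medians were 1.70 for class II, −2.05 for chemokines and 2.38 for conventional dendritic cell genes. With at least 30 UMIs due the counts were 92 and 355, 16 and 33, and 22 and 13, and the last of these medians was −0.48. With 3 UMIs added, the chemokine median was −2.06, 104 genes were lower than in Control macrophages and 47 higher in AngII+HS. Entry at the mean of both rates, also added later, gave 416 higher genes against AngII+HS macrophages, 134 higher and 93 lower in Control, 52 and 117 between conditions, and medians of 1.64 for class II, −2.01 for chemokines and 2.38 for conventional dendritic cell genes. With thinning to 500 UMIs, 6 of the 12 most variable genes stayed among the 12.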

Other observations

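Among all 5298 genes entered against C1q macrophages in AngII+HS, 4.83% were at least 2-fold higher in cDC2 and 13.4% lower. Of 14 listed genes of mature dendritic cells 7 entered, with 2 higher, 0 lower and a median log2 ratio of 0.70. The 2 were *Samsn1*, an adaptor of lymphocyte signalling (397 against 119 CPM, 1.75, 1.50 to 1.98), and *Traf1*, an adaptor of TNF receptors (340 against 110 CPM, 1.63, 1.36 to 1.88). *Fscn1*, an actin-bundling protein of mature dendritic cells, was at 7.73 CPM in cDC2 and 10.8 CPM in C1q macrophages, on 3 UMIs. The 8 plasmacytoid dendritic cell markers summed to 518 CPM in cDC2 and 758 CPM in C1q macrophages. *Tcf4*, a transcription factor (103 UMIs in 32 cells), and *Bst2*, the antiviral protein tetherin (85 UMIs in 33 cells), gave most of it, with 1 UMI of *Siglech* and 0 of *Ly6d*.

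Monocyte genes were split in the same comparison, with 2 of 10 entered genes higher, 5 lower and a median of −0.99. *Plac8* (490 against 138 CPM, 1.83) and *Ifitm3* (1730 against 714 CPM, 1.28) were the 2 that were higher. *F13a1*, the coagulation factor XIII A chain (18.04 against 348 CPM, −4.17), and *Thbs1*, the matrix protein thrombospondin 1 (211 against 1107 CPM, −2.38), were among the lower ones. Of the chemokine receptors, *Cx3cr1* was at 38.7 against 155 CPM (−1.95).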
